A study of Mus musculus with 12 samples.

Results

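Perineurial cells are the flattened cells that wrap each fascicle of a peripheral nerve in concentric sheets. Their tight junctions and basal laminae form, together with the vessels inside the fascicle, the barrier between nerve and blood. Desert hedgehog released by Schwann cells is needed for a normal perineurium in the mouse, and after a nerve is cut perineurial cells take part in rebuilding the fascicles. Described here are 6 genes used as markers of these cells, of 30452 genes listed for injured mouse sciatic nerve: Lypd2, Krt19, Msln, Ntn4, Slc2a1 and Krt15. They were chosen by gene symbol, with earlier results of these data known. Each symbol had a single row, and all 6 were abundant enough to be among the 19189 genes tested.

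RNA was measured 14 days after nerve injury in the bridge, the tissue newly grown between the nerve ends, and in the distal stump, the nerve beyond it. Control mice carried P0-CreERT2:YFPfl/fl:Nf1+/+ (CTL) and were compared with P0-CreERT2:YFPfl/fl:Nf1fl/fl mice (Nf1 KO), so that both genotypes carried the Cre driver and the YFP allele. According to the labels tamoxifen removed Nf1 from myelinating Schwann cells of the Nf1 KO mice. Perineurial cells are not named as a target of the deletion, and the sources used here do not give the strain, age or sex of the mice or whether CTL mice received tamoxifen. Each library pooled 6 fragments of 0.5 mm from several mice, and there were 3 libraries for each of the 4 groups.

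Library totals ran from 18821445 to 38981819 counts. Levels are given as CPM, counts scaled to the library's size after TMM adjustment, and 3 counts correspond to 0.0771 to 0.154 CPM in a library. Nf1 itself stood at 60.1 to 67.4 CPM in the CTL bridge and 42.4 to 54.7 in the Nf1 KO bridge, and at 57.0 to 69.7 CPM in the CTL distal stump and 42.3 to 43.1 in the Nf1 KO distal stump. Some libraries stood apart. Skeletal muscle markers summed to 9358 and 8157 CPM in CTL bridge 1 and 3, against 1233 CPM in CTL bridge 2 and 493 to 1704 CPM in the Nf1 KO bridge. In the distal stump they summed to 21.2 to 340 CPM in CTL. The sums in Nf1 KO distal stump 1, 2 and 3 were 3161, 15.2 and 101 CPM. In Nf1 KO distal stump 1 the share of Gm15662 in all counts was also high, at 24.5%. Y-linked genes averaged 4.63 to 5.64 log2 CPM in CTL bridge libraries and 3.36 to 5.13 in those of Nf1 KO. In the distal stump they averaged 4.80 to 5.53 in CTL and 3.32 to 4.69 in Nf1 KO, without overlap, so that the sex make-up of the pools and genotype are not independent there.

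The 6 genes encode proteins of different kinds. Lypd2 is a member of the LY6/uPAR family of small surface proteins, and Msln encodes mesothelin, a surface glycoprotein best known from mesothelium. Slc2a1 encodes the glucose transporter GLUT1, which carries glucose across barrier layers, in nerve both the perineurium and the vessels of the fascicle. Ntn4 encodes a secreted netrin that binds laminins of basement membranes. Krt19 and Krt15 are type I keratins, the former of simple epithelia and the latter of basal keratinocytes. In the mouse assembly GRCm38 both keratin genes lie on the minus strand of chromosome 11, Krt15 at 100131758 to 100135928 and Krt19 at 100140810 to 100148665, with 4881 bases between them. Lypd2 lies on chromosome 15 (74732247 to 74734329), Msln on chromosome 17 (25748613 to 25754378), Ntn4 on chromosome 10 (93640681 to 93747207) and Slc2a1 on chromosome 4 (119108711 to 119137983). Small genes of the opposite strand are annotated inside Ntn4 and Slc2a1, and the microRNA gene Mir1957a lies inside Slc2a1. How reads in such overlaps were assigned is not given.

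Promoter sequences were matched in RefSeq (GRCm38.p6) for 2 of the 6 genes, Slc2a1 and Ntn4. They are shown because these were the entries matched. G and C made up 65.3% of bases for Slc2a1 and more for Ntn4, against a median of 52.7% over 32851 promoters of this length. Each runs from 250 bases before the RefSeq start to 50 after it, on the plus strand, at chr4:119108495-119108794 and chr10:93640799-93641098. The Ntn4 window lies wholly inside the gene as placed above, which begins at 93640681, so the annotations differ in its start. Capitals mark the GC box GGGCGG on either strand and the hypoxia element core ACGTG.
Slc2a1: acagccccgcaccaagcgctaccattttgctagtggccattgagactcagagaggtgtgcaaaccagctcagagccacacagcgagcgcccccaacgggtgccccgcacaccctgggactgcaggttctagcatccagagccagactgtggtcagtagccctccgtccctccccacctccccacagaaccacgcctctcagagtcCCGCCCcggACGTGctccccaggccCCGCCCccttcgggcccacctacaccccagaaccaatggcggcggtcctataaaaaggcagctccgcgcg
Ntn4: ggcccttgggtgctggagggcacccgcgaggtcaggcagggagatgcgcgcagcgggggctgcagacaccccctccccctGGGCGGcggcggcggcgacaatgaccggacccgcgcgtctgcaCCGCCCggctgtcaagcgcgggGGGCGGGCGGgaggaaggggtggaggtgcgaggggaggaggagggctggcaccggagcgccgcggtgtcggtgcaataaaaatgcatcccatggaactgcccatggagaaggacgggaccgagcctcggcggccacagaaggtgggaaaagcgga
The Slc2a1 window held 2 GC boxes and 1 hypoxia core, and the Ntn4 window 4 GC boxes, of which a pair overlap. A GC box occurred in 35.7% of all promoters of this length and the hypoxia core in 19.6%. Neither window held the AP-1 letters TGANTCA (7.81% of promoters), the TEAD letters GGAATG (14.7%), the GLI letters GACCACCCA (0.253%) or the ETS letters CCGGAAG (8.86%), searched on both strands. These are matches of letters, with no measurement of binding.

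Between genes, levels were set side by side per kilobase of the longest transcript. On that scale Lypd2 ranked first in each of the 4 groups, with 134 CPM per kilobase in the CTL bridge, and Slc2a1 second with 38.3. Krt19 followed with 32.5, then Msln, then Ntn4 with 11.0 CPM per kilobase in that group. Krt15 was last in every group, at 1.58 CPM per kilobase in the CTL bridge and 0.235 in the CTL distal stump. Krt19 and Msln changed places between regions, Krt19 being the higher in the bridge of both genotypes and Msln the higher in the distal stump of both.

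The first comparison asked how these genes differ in the bridge when myelinating Schwann cells have lost Nf1. In the bridge 5 of the 6 markers fell in Nf1 KO, and none rose. Over all tested genes 14.6% were called, 6.76% lower and 7.81% higher. Markers and lists were chosen with earlier results of these data known, so these shares give scale and are not a test of enrichment. Levels of the 5 were between 41.1% and 58.2% of CTL. These are bulk samples, in which fewer cells of a type and less RNA per cell cannot be told apart.

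The 3 CTL bridge libraries gave 73.8, 72.9 and 59.6 CPM for Lypd2, and those of Nf1 KO gave 30.2, 25.9 and 28.8 CPM. The groups did not overlap, and the highest Nf1 KO library was well under the lowest CTL library. Lypd2 fell by 1.28 on the log2 scale (SE 0.12, edgeR adjusted p = 0.000287). For Msln the CTL values were 41.0, 46.2 and 49.1 CPM, those of Nf1 KO 19.9, 26.7 and 21.1 CPM. Again all Nf1 KO libraries were below all CTL libraries, and the log2 fold change was -1.01 (SE 0.12, edgeR adjusted p = 0.000714).

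Ntn4, the laminin-binding netrin, had values of 37.2, 40.1 and 43.3 CPM in CTL, compared with 17.5, 24.2 and 22.1 CPM in Nf1 KO. The groups were separate, with a log2 fold change of -0.92 (SE 0.12, edgeR adjusted p = 0.00128). Slc2a1 gave 115, 130.2 and 130.1 CPM in CTL, compared with 68.3, 77.2 and 72.9 CPM in Nf1 KO. The libraries of a group lay close together for this transporter gene, which had the smallest change of the 5, -0.78 (SE 0.12, edgeR adjusted p = 0.00234).

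The keratins behaved differently from each other. Krt19 gave 56.0, 54.2 and 43.3 CPM in CTL, compared with 23.9, 27.9 and 23.0 CPM in Nf1 KO, without overlap, and fell by 1.03 on the log2 scale (SE 0.14, edgeR adjusted p = 0.00149). Krt15 gave 2.30, 3.14 and 2.60 CPM in CTL, compared with 2.20, 2.29 and 2.36 CPM in Nf1 KO. Its groups overlapped, and the difference of -0.23 was not called (95% interval -0.88 to 0.42, edgeR adjusted p = 0.669).

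**Figure D1:**
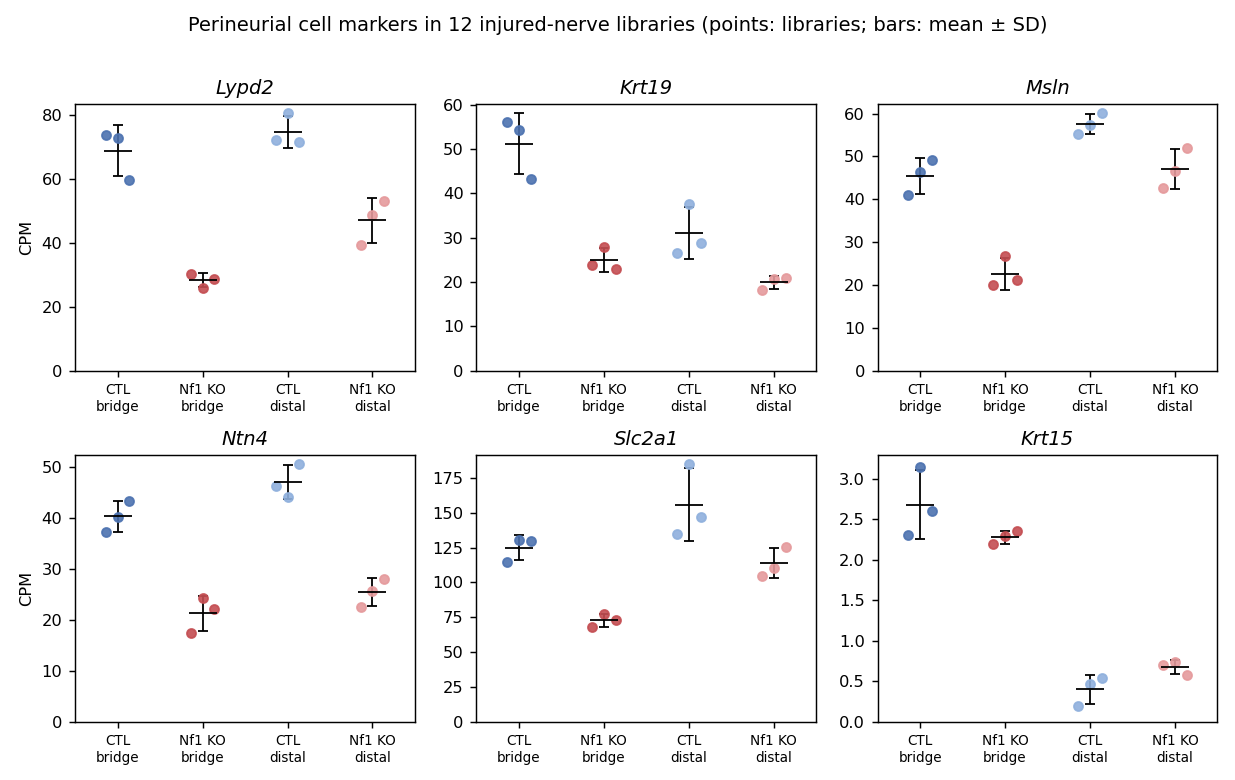
CPM (y axis, from 0, a separate scale per gene) of the 6 markers in each library (points), with mean ± SD of the 3 libraries of a group (bars), for the bridge and distal stump of CTL and Nf1 KO nerves. In the bridge Lypd2, Krt19, Msln, Ntn4 and Slc2a1 have every Nf1 KO library below every CTL library, while Krt15 differs mainly between bridge and distal stump.

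Changes of this size were uncommon but not rare among tested genes. The log2 fold change of Lypd2 lay at the 3.29th percentile of all tested genes in this comparison, and those of Krt19, Msln, Ntn4 and Slc2a1 at the 4.66th, 4.85th, 5.58th and 7.18th. Libraries without overlap and lower in Nf1 KO were seen for 16.7% of tested genes, and higher ones for 17.8%. Of the 19 other settings, the 5 calls were kept in each that left no group with a single library. These included leaving out each library in turn and adding the Y-linked level as a covariate. Leaving out both muscle-rich CTL bridge libraries left CTL bridge 2 alone in its group, and the 5 markers were lower in Nf1 KO there too.

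The same genotype comparison in the distal stump called 4 of the 6 markers lower and none higher, against 8.14% of tested genes called, 3.69% lower and 4.45% higher. Msln and Krt15 were not called.

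The 3 CTL distal stump libraries gave 46.2, 44.1 and 50.5 CPM for Ntn4, and those of Nf1 KO gave 22.5, 25.5 and 28.0 CPM. It had the largest change of the 6 markers in this region, -0.89 (SE 0.12, edgeR adjusted p = 0.00194), and its groups were far apart. Lypd2 gave 72.1, 80.6 and 71.7 CPM in CTL, compared with 39.4, 48.6 and 53.2 CPM in Nf1 KO. All Nf1 KO libraries were below the CTL libraries here too, with a change of -0.67 (SE 0.12, edgeR adjusted p = 0.00774).

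Krt19 gave 26.5, 37.6 and 28.9 CPM in CTL, compared with 18.2, 20.7 and 20.8 CPM in Nf1 KO. Slc2a1 gave 135, 185 and 147 CPM, compared with 105, 110.5 and 126 CPM. In both genes CTL distal stump 2 was the highest library. Krt19 fell by 0.64 (SE 0.14, edgeR adjusted p = 0.0216) and Slc2a1 by 0.46 on the log2 scale (SE 0.12, edgeR adjusted p = 0.0377). Neither call was firm. Without CTL distal stump 2 the change of Krt19 was -0.48 (edgeR adjusted p = 0.0569) and that of Slc2a1 -0.31 (0.0962). The Krt19 call was also lost without Nf1 KO distal stump 1 (0.0659), 2 (0.0586) or 3 (0.0546). That of Slc2a1 was also lost without CTL distal stump 3 (0.0690), Nf1 KO distal stump 1 (0.101) or 2 (0.112), CTL bridge 2 (0.0526), or Nf1 KO bridge 2 (0.0528) or 3 (0.0575). It was lost without both muscle-rich CTL bridge libraries as well. Both calls were lost with the 6 distal libraries fitted alone (0.0538 for Krt19, 0.125 for Slc2a1).

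Msln gave 55.2, 57.4 and 60.1 CPM in CTL, compared with 42.7, 46.7 and 51.9 CPM in Nf1 KO. The groups did not overlap, as for 13.2% of tested genes in this direction, but the difference of -0.29 was not called (95% interval -0.54 to -0.04, edgeR adjusted p = 0.154). With the Y-linked level as a covariate it was -0.45 and was called (edgeR adjusted p = 0.0401).

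Krt15 went the other way. Its CTL values were 0.193, 0.465 and 0.540 CPM, from 6, 14 and 21 counts, compared with 0.707, 0.742 and 0.576 CPM in Nf1 KO, from 21, 27 and 16 counts. Every Nf1 KO library was above every CTL library, as for 13.9% of tested genes, but the difference of 0.74 was not called (95% interval 0.03 to 1.45, edgeR adjusted p = 0.196).

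The interaction of genotype and region asks whether the genotype difference itself differs between bridge and distal stump. edgeR called 0 of 19189 genes (0% of those tested), with 2534 at an unadjusted p under 0.05. DESeq2 called 427 genes, of a set filtered by its own rule whose size is not given here. For Lypd2 the bridge difference was more negative than the distal difference by 0.61 log2 units (interaction -0.61, 95% interval -0.99 to -0.24, edgeR adjusted p = 0.194), and for Msln by 0.72 (-0.72, interval -1.08 to -0.36, edgeR adjusted p = 0.139). DESeq2 called these 2 markers, with adjusted p = 0.0338 for Lypd2 and 0.00488 for Msln. For Ntn4 the interaction was -0.03 (interval -0.40 to 0.34, edgeR adjusted p = 0.966). Krt19 had -0.40 (interval -0.84 to 0.04), Slc2a1 -0.32 (-0.69 to 0.04) and Krt15 -0.98 (-1.94 to -0.02), with edgeR adjusted p = 0.429, 0.432 and 0.370. DESeq2 called neither Krt19 nor Slc2a1 and gave no adjusted p for Krt15.

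**Figure D2:**
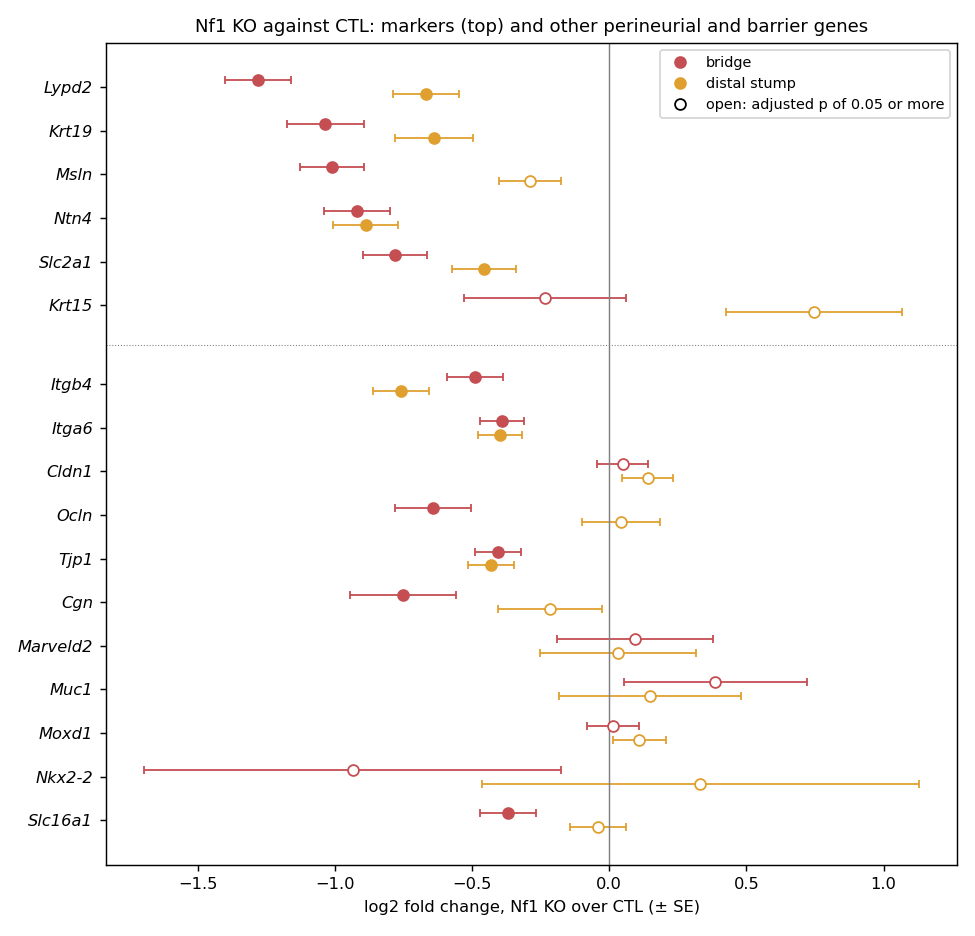
Log2 fold change of Nf1 KO over CTL (x axis, ± SE) for the 6 markers (above the dotted line) and 11 other perineurial and barrier genes (below it), in the bridge and the distal stump. Filled points have an edgeR adjusted p under 0.05: 5 markers and 6 of the other genes shown in the bridge, 4 markers and 3 of the other genes in the distal stump, all of them lower in Nf1 KO.

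Other genes tied to the perineurium and its barrier were read from a list of 12, all of them tested. In the bridge 7 fell and none rose, with a median log2 fold change of -0.39 against 0.00 over all tested genes. Without both muscle-rich CTL bridge libraries, which left a single CTL bridge library, fewer of the 12 were called lower. In the distal stump 3 fell and none rose, and the median was 0.00 against 0.00. Of all tested genes 6.76% were called lower in the bridge and 3.69% in the distal stump. Itgb4 and Itga6 encode the integrin pair that binds laminin. Itgb4 went from 92.4 ± 12.2 to 65.9 ± 6.58 CPM (SD, n = 3) in the bridge, a fall of 0.49 (SE 0.10, edgeR adjusted p = 0.011), and from 138 ± 8.58 to 81.8 ± 3.72 CPM in the distal stump, a fall of 0.76 (SE 0.10, edgeR adjusted p = 0.0019). Itga6 fell by 0.39 in the bridge and by 0.40 in the distal stump (SE 0.08 in each). The junction scaffold gene Tjp1 fell by 0.41 and by 0.43 (SE 0.08 in each).

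The remaining members of that list, picked out after their values were seen, did not move as a block. Cldn1, the claudin of perineurial tight junctions, gave 325, 332 and 293 CPM in the bridge of CTL, compared with 371, 300.1 and 312 CPM in Nf1 KO. Its groups overlapped (log2 fold change 0.05, SE 0.09, edgeR adjusted p = 0.79). The monooxygenase-like gene Moxd1 was at 44.2 ± 4.29 and 44.6 ± 4.98 CPM (SD, n = 3), with overlap too. Ocln, which encodes the junction protein occludin, fell from 17.3 ± 1.78 to 11.1 ± 1.07 CPM in the bridge (-0.64, SE 0.14, edgeR adjusted p = 0.013), and in the distal stump it was at 6.93 ± 0.282 and 7.14 ± 1.43 CPM. The junction adaptor gene Cgn (-0.75, SE 0.19) and the monocarboxylate carrier gene Slc16a1 (-0.37, SE 0.10) also fell in the bridge, with edgeR adjusted p = 0.027 and 0.035.

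Hedgehog genes, which act between Schwann cells and perineurium, were read from a list of 8. Dhh, the ligand gene expressed by Schwann cells, stood at 128 ± 12.2 CPM in the CTL bridge and 98.2 ± 4.92 CPM in the Nf1 KO bridge, and its difference of -0.39 was not called (edgeR adjusted p = 0.064). Ptch1, the receptor gene, fell in both regions, by 0.36 in the bridge (SE 0.09, edgeR adjusted p = 0.025) and by 0.48 in the distal stump (SE 0.09, edgeR adjusted p = 0.011). The transcription factor gene Gli3 rose in the bridge by 0.46 (SE 0.12, edgeR adjusted p = 0.032). Gli1, a target of the pathway, had log2 fold changes of 0.26 in the bridge and 0.20 in the distal stump and was not called. In all, 1 of 8 fell and 1 rose in the bridge (median 0.11), against 6.76% of all tested genes called lower and 7.81% higher. In the distal stump 1 fell and none rose (median 0.18), against 3.69% and 4.45%.

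The second question the design allows is how the regions differ. In CTL nerves 2 of the 6 markers rose in the bridge relative to the distal stump and none fell, against 9.85% of tested genes called, 5.15% higher and 4.71% lower. In Nf1 KO nerves 1 rose and 3 fell, against 15.2% called, 7.78% higher and 7.41% lower. These comparisons share libraries with those between genotypes, so their values are given side by side and not as separate support.

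Krt15 had by far the largest regional difference of the 6. Its CTL mean was 2.68 ± 0.426 CPM in the bridge and 0.399 ± 0.182 CPM in the distal stump (SD, n = 3), and its Nf1 KO mean 2.28 ± 0.0803 and 0.675 ± 0.0873 CPM. The lowest bridge library, at 2.20 CPM, was above the highest distal library, at 0.742 CPM. Bridge libraries were all higher for 15.7% of tested genes in CTL and for 17.2% in Nf1 KO. The log2 fold change was 2.73 in CTL (SE 0.32, edgeR adjusted p = 0.00209) and 1.75 in Nf1 KO (SE 0.31, edgeR adjusted p = 0.00474).

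Krt19 was higher in the bridge of CTL nerves by 0.72 (SE 0.14, edgeR adjusted p = 0.0120) and in Nf1 KO nerves by 0.33, which was not called (SE 0.14, edgeR adjusted p = 0.155). The CTL call was lost without CTL bridge 1 (edgeR adjusted p = 0.0524), without CTL distal stump 1 (0.0530), and with the CTL libraries fitted alone (0.0532). The same call was lost without both muscle-rich CTL bridge libraries, which left a single CTL bridge library. Msln, Lypd2 and Slc2a1 were lower in the bridge of Nf1 KO nerves, by -1.06 (SE 0.12, edgeR adjusted p = 0.000593), -0.73 (SE 0.12, 0.00324) and -0.64 (SE 0.12, 0.00526). In CTL nerves their differences were -0.34, -0.12 and -0.32 and were not called by edgeR, while DESeq2 called Msln and Slc2a1 (adjusted p = 0.0392 and 0.0482). The share of all genes that DESeq2 called between CTL regions is not given here. Without Nf1 KO bridge 2, edgeR also called Msln in CTL (adjusted p = 0.0425). Of 8 endothelial markers 6 were called higher and none lower in the bridge of Nf1 KO nerves, against 7.78% and 7.41% of tested genes. The claudin gene Cldn5 was not among the 6, and the part of vessels in the regional difference of Slc2a1 was not tested. Ntn4 was called in neither genotype, with -0.22 in CTL and -0.25 in Nf1 KO.

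**Figure D3:**
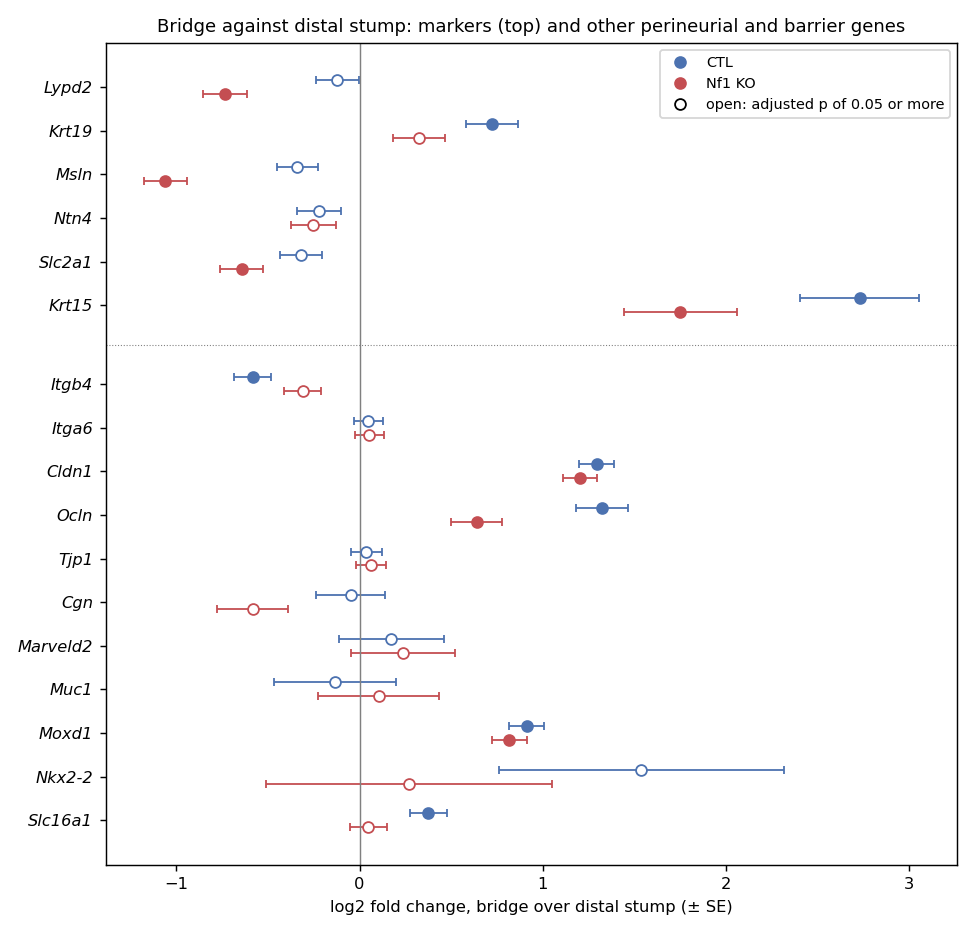
Log2 fold change of bridge over distal stump (x axis, ± SE) for the same genes in CTL and in Nf1 KO nerves, filled where the edgeR adjusted p is under 0.05. Krt15 (2.73 in CTL), Cldn1, Ocln and Moxd1 lie to the right in both genotypes, whereas Lypd2, Msln and Slc2a1 lie to the left in both, filled in Nf1 KO.

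Ordering the 4 groups by their mean set the markers apart further. For Lypd2, Ntn4 and Slc2a1 the order was CTL distal stump, CTL bridge, Nf1 KO distal stump, Nf1 KO bridge. Neighbours that overlapped were the CTL groups for Lypd2, the Nf1 KO groups for Ntn4, and CTL bridge with Nf1 KO distal stump for Slc2a1. For Msln the order was CTL distal stump, Nf1 KO distal stump, CTL bridge, Nf1 KO bridge, with overlap of the middle pair. Krt19 ran from CTL bridge through CTL distal stump and Nf1 KO bridge, which overlapped, to Nf1 KO distal stump. Krt15 ran from the CTL and Nf1 KO bridge, which overlapped, to the Nf1 KO and then the CTL distal stump.

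Among the 12 other perineurial and barrier genes 5 were called higher in the bridge of CTL nerves and 1 lower, and in Nf1 KO nerves 3 were called higher and none lower. Cldn1 was higher in the bridge of both, by 1.29 in CTL (SE 0.09, edgeR adjusted p = 0.00042), and in Nf1 KO it had an edgeR adjusted p = 0.00036. Moxd1 was higher by 0.91 and 0.82 (SE 0.10 in each) and Ocln by 1.32 and 0.64 (SE 0.14 in each). Itgb4 was lower in the CTL bridge by -0.58 (SE 0.10, edgeR adjusted p = 0.0085). Of the 8 hedgehog genes 5 were higher and none lower in the CTL bridge, and 6 were higher and 1 lower in the Nf1 KO bridge. Over all tested genes 5.15% were called higher and 4.71% lower in CTL, and 7.78% and 7.41% in Nf1 KO. The inhibitor and target gene Hhip stood at 11.1 CPM in the CTL bridge and 1.22 CPM in the CTL distal stump.

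Profiles over the 12 libraries were compared by the root mean square difference between log2 CPM values, each gene centred on its own mean. The smaller the value, the more alike the profiles, and the median over 13136 candidate genes was between 0.453 and 1.17 log2 units for the 6 markers. Among the markers themselves Msln and Slc2a1 were closest (0.19), followed by Lypd2 with Slc2a1 and Ntn4 with Slc2a1 (0.25 each). Krt15 was far from all the others (1.04 to 1.54), and Krt19 was nearest to Ntn4 (0.45).

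The genes nearest to each marker, taken by rule, were as follows. Axin2, a target of Wnt signalling, was nearest to Slc2a1 (0.089), before the laminin receptor gene Bcam (0.11) and the growth factor gene Bmp6 (0.12). Prom1, which encodes the membrane protein prominin 1, was nearest to Ntn4 (0.10) and second nearest to Lypd2 (0.20), after Ankrd33b (0.18). Cpe, a carboxypeptidase gene, was nearest to Msln (0.12), before the Wnt enhancer gene Rspo1 and the protease inhibitor gene A2m (0.16 each).

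For Krt19 the nearest were Cldn19, the claudin gene of myelinating Schwann cells (0.13), and the ephrin gene Efnb3 (0.15). Mean Cldn19 levels were 282 and 143 CPM for CTL and Nf1 KO in the bridge, and 192 and 115 CPM for CTL and Nf1 KO in the distal stump. The group order by mean was that of Krt19. Genes were chosen here for a near profile, so a like order of groups follows largely from the choice. For Krt15 the nearest were Lgals7, a galectin gene of stratified epithelia (0.32), the tendon gene Tnmd (0.37) and Prnd (0.38). Lgals7 stood at 17.2 and 15.5 CPM in the CTL and Nf1 KO bridge and at 2.37 and 3.79 CPM in the CTL and Nf1 KO distal stump.

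**Figure D4:**
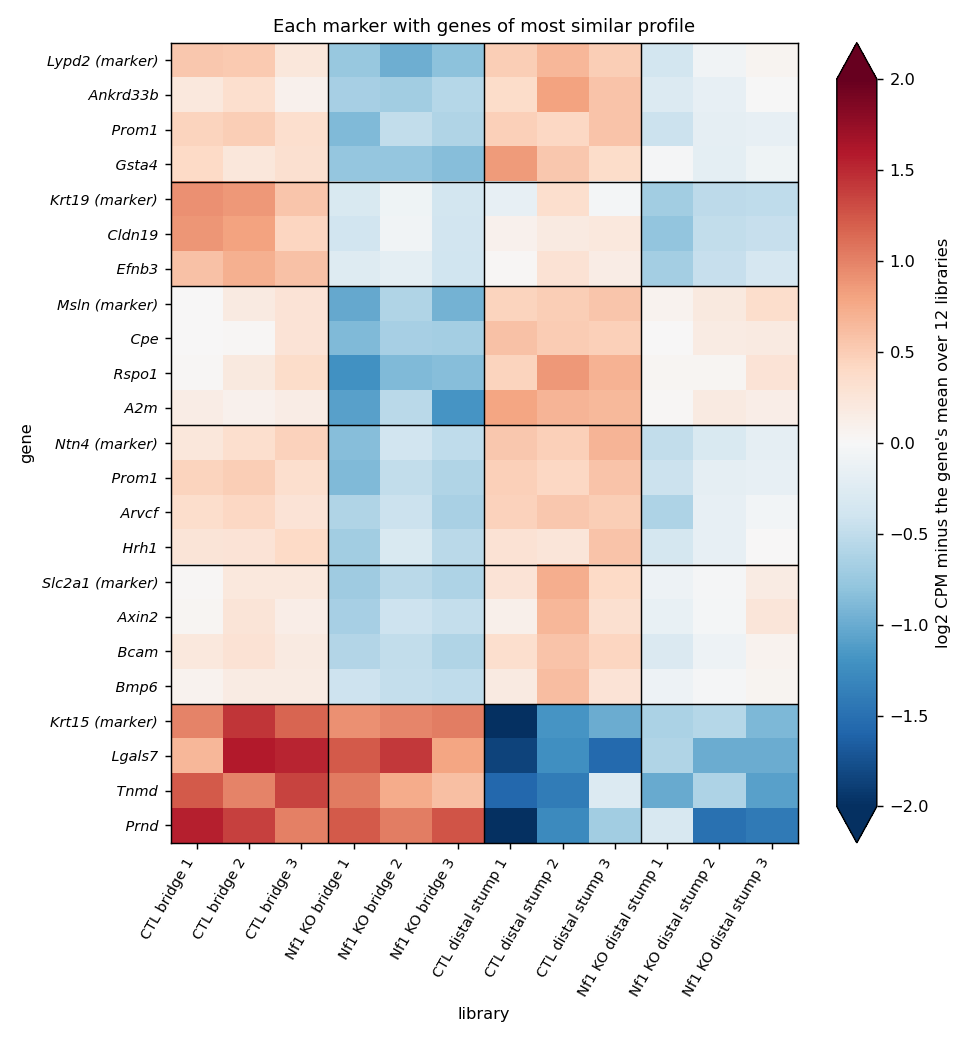
Log2 CPM of each library (columns, by group) minus the gene's mean over 12 libraries (colour, clipped at the ends of the scale), for each marker and the 2 or 3 nearest genes shown with it. The rows of Lypd2, Msln, Ntn4 and Slc2a1 are lowest in the Nf1 KO bridge, the Krt19 rows are highest in the CTL bridge, and the Krt15 rows separate bridge from distal stump.

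Markers of other cell types that could carry these genes were read in the same libraries. Of all tested genes 6.76% were called lower in the bridge and 3.69% in the distal stump. Of 8 markers of myelinating Schwann cells all 8 fell in the bridge and all 8 in the distal stump. Their summed level was 12148 to 16249 CPM in the CTL bridge and 7297 to 9435 CPM in the Nf1 KO bridge, and 9724 to 11242 and 5795 to 7624 CPM in the CTL and Nf1 KO distal stump. They moved with the 5 markers between genotypes, and their part in the result was not tested. Of 8 endothelial markers 1 fell in the bridge, the barrier claudin gene Cldn5 (-1.10, SE 0.14), and 4 fell in the distal stump. Their sum was 359 to 399 and 323 to 336 CPM in the CTL and Nf1 KO bridge, and 296 to 343 and 216 to 265 CPM in the CTL and Nf1 KO distal stump. Slc2a1 is also a gene of vessels in nerve, and the part of vessels in its values was not tested.

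Of 6 mesothelial markers 3 were abundant enough to test, and 1 fell and none rose in the bridge, while 1 fell and 1 rose in the distal stump. Muc16 had no count in any library and Upk3b was at 0 to 0.0771 CPM. The list's sum was 21.4 to 28.0 and 11.9 to 16.4 CPM in the CTL and Nf1 KO bridge, and 23.9 to 30.5 and 15.2 to 17.7 CPM in the CTL and Nf1 KO distal stump. Most of it came from Gpm6a, which nerve tissue also expresses and which fell by 1.13 in the bridge and 1.02 in the distal stump (SE 0.18 in each). Upk1b, a uroplakin gene, rose in the distal stump from 0.451 ± 0.203 to 2.67 ± 0.621 CPM (SD, n = 3; 2.54, SE 0.33, edgeR adjusted p = 0.00159). In the bridge it was at 1.71 ± 0.0828 and 2.49 ± 0.513 CPM, with every Nf1 KO library above every CTL library and no call (0.54, SE 0.30, edgeR adjusted p = 0.272). The part of mesothelial cells in the values of Msln was not tested.

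Of 7 keratinocyte markers 2 were abundant enough to test and none was called between genotypes or regions. Krt5 had a count in 1 library and Krt14 in 1 library, and the list's sum was 3.12 to 4.44 CPM over all 12 libraries. Trp63, the transcription factor gene of basal keratinocytes, had counts in every library. It was at 0.655 to 1.26 CPM in the CTL bridge and 0.322 to 0.514 CPM in the CTL distal stump, apart in the same direction as Krt15 but not called (1.32, SE 0.41, edgeR adjusted p = 0.071). In Nf1 KO its libraries overlapped between regions (0.64, SE 0.42, edgeR adjusted p = 0.362). The part of keratinocytes in the values of Krt15 was not tested.

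Adipocyte markers fell in 5 of 6 cases in the bridge and in none in the distal stump, against 6.76% and 3.69% of tested genes. The sum of these markers was 443 to 638 and 224 to 368 CPM in the CTL and Nf1 KO bridge. In the CTL and Nf1 KO distal stump it was 392 to 564 and 351 to 444 CPM. Their part in the bridge result was not tested. Of 6 erythroid markers none was called between genotypes. In the bridge 5 of 6 were lower in every Nf1 KO library than in any CTL library, as were 16.7% of tested genes. The globin genes among them were all highest in CTL bridge 3. The summed level of the 6 was 1666 to 4604 and 1042 to 1317 CPM in the CTL and Nf1 KO bridge, without overlap. In the distal stump it was 927 to 3304 and 785 to 1599 CPM in CTL and Nf1 KO. The median log2 fold change of the list was -1.44 in the bridge, where the globin gene Hbb-bt had the smallest adjusted p (-1.42, SE 0.45, edgeR adjusted p = 0.0572). This list moved in the same direction as the 5 markers in the bridge, and its part was not tested. Of 8 skeletal muscle markers none was called between genotypes, with a median of -2.57 in the bridge and 2.29 in the distal stump. Fibroblast markers, a list of 6, rose in 1 case and fell in none in the bridge, and rose in 1 and fell in 2 cases in the distal stump. Their sum was 283 to 305 and 302 to 324 CPM in the CTL and Nf1 KO bridge. Over all tested genes 6.76% were called lower and 7.81% higher in the bridge, and 3.69% and 4.45% in the distal stump.

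Keratins of simple epithelia and possible partners of Krt19 were read from a list of 6, of which 4 were tested. Krt7 had mean levels of 3.31 and 3.44 CPM in the CTL and Nf1 KO bridge. In the CTL and Nf1 KO distal stump its means were 4.69 and 6.34 CPM. Krt8 stood at 1.48, 1.21 and 6.05 CPM in CTL bridge 1 to 3, compared with 0.623, 0.0280 and 0.0597 CPM in Nf1 KO, and at 0 to 0.0332 CPM in the distal stump of both genotypes, where Krt19 was at 18.2 to 37.6 CPM. Krt8 was the member called lower in the Nf1 KO bridge (-3.66, SE 1.07, edgeR adjusted p = 0.044), and in the distal stump none was called. CTL bridge 3 was the highest library for Krt8 and, at 13.4 CPM, for its partner Krt18.

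Netrins, their receptors and the laminin chain bound by Ntn4 were read from 11 tested genes. In the bridge 3 fell and 2 rose (median 0.04), against 6.76% of all tested genes called lower and 7.81% higher. In the distal stump 1 fell and 1 rose (median -0.09), against 3.69% and 4.45%. Ntng1, a membrane-anchored netrin gene, fell in the bridge from 22.5 ± 3.08 to 14.5 ± 0.582 CPM (-0.64, SE 0.09, edgeR adjusted p = 0.0023). The receptor gene Unc5a rose in the bridge from 1.34 ± 0.271 to 3.21 ± 0.497 CPM (1.25, SE 0.22, edgeR adjusted p = 0.0047) and in the distal stump from 1.92 ± 0.21 to 4.97 ± 1.11 CPM (1.37, SE 0.22, edgeR adjusted p = 0.0044). Unc5b rose in the bridge by 1.16 (SE 0.25, edgeR adjusted p = 0.012). Lamc1, the laminin chain gene, had log2 fold changes of 0.04 and 0.02 in the bridge and distal stump (SE 0.08 in each) and was not called.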

How the data were processed

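Total RNA of pooled nerve fragments was depleted of ribosomal RNA and sequenced from directional libraries with 15 PCR cycles, per the labels' protocols. Tools listed in the submitters' processing notes are CASAVA 1.8.2, cutadapt 1.2.1 and DESeq2, with mm10 as build and aligner and counting tool not given in the sources used here. Unscaled whole numbers for 30452 genes were deposited by the authors, made by a counting step that the labels do not describe and treated here as estimated counts, since genes no longer than 120 bases held 957 non-zero values and none below 19. All 12 columns were mapped to samples.

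Counts of all libraries entered a group-means model in edgeR 4.0.16 (filterByExpr, TMM, glmQLFit, glmQLFTest, Benjamini-Hochberg adjustment over 19189 genes, called under 0.05) in R 4.3.3. An SE was taken as the absolute log2 change over the root of its F statistic. The p-values measure the spread between libraries pooled from several mice. DESeq2 1.42.0, other size factors, no filter, a replicate block, a Y-linked covariate, the compared libraries alone and leaving libraries out served as alternatives.

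Members and lists were chosen with earlier results of these data known. Named genes are the 6 markers, up to 3 members with the smallest p per list and genotype comparison, the most abundant member, and the 3 genes of nearest profile with a mean log2 CPM of at least 1 (prior count 2). Ocln, Cldn1, Moxd1, Cgn, Slc16a1, Hhip, Muc16, Upk3b, Krt5 and Krt14 were named after their values were seen. Values of 2 genes chosen this way are left out of the text and figures. Coordinates come from GENCODE M21, in which 30123 gene IDs were found.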

Additional observations from a re-analysis of the deposited data

How the results depend on the processing

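Of the 19 alternatives, the 5 calls of the bridge genotype comparison held in each that left no group with a single library. Of 564 alternative values of single markers 536 kept direction and side of the threshold, 18 lost and 6 gained a call and 4 reversed, all of the last for Ntn4 in the interaction: it was 0.028, 0.013, 0.092 and 0.048 on leaving out CTL bridge 3, CTL distal stump 2, Nf1 KO bridge 1 or Nf1 KO distal stump 3 in turn, in a range of -0.133 to 0.0917. With libraries left out, 2 to 4 markers were called lower in the distal stump, 0 to 1 lower and 1 to 2 higher in the CTL bridge against distal stump. DESeq2 called 2 markers lower in the CTL bridge against distal stump and 2 in the interaction, where it called 427 genes. With the 6 compared libraries alone, 2 markers were called lower in the distal stump (889 genes in all) and 1 higher between CTL regions (869 genes), and the interaction could not be fitted. Without both muscle-rich libraries 711 genes and 2 of the other perineurial genes were called in the bridge, and between CTL regions 506 genes and 1 marker, higher. Over the fits that left out a library, all genes called numbered 1612 to 2947 for genotype in the bridge, 880 to 1561 in the distal stump, 681 to 2062 between CTL regions and 1594 to 2892 between Nf1 KO regions. Why these counts moved was not tested. Replicate numbers are shared between groups. Over all tested genes, deviations of same-numbered libraries from their group means were at most weakly correlated: 1 of 18 correlations was over 0.1 (-0.06 to 0.14). Y-linked levels, however, kept the same order in every group, with replicate 1 highest and replicate 2 lowest. Whether same-numbered libraries share a source was not tested, and the main model treats them as unpaired. With the replicate block 2464 genes were called in the bridge and 1284 in the distal stump, and 5 and 4 markers lower. Krt15, with 6 to 27 counts per distal library, is the marker most limited by depth.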

Other observations

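Relatives of the transporter gene Slc2a1 were read from a list of 9 glucose and monocarboxylate carriers, of which 8 were tested. In the bridge 1 of 8 was called, against 14.6% of all tested genes, and it fell (list median -0.06): Slc2a4, the insulin-responsive transporter gene of muscle and fat, from 17.5 ± 6.37 to 5.81 ± 2.23 CPM (SD, n = 3; -1.59, SE 0.33, edgeR adjusted p = 0.010). In the distal stump 1 of 8 was called, against 8.14% of all tested genes, and it rose (list median 0.06): Slc2a10 from 4.22 ± 0.72 to 6.79 ± 1.10 CPM (0.69, SE 0.16, edgeR adjusted p = 0.024).

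Of 10 LY6/uPAR family relatives of Lypd2 8 were tested, and none was called between genotypes in either region. Over all tested genes 14.6% were called in the bridge and 8.14% in the distal stump. Medians of the list were -0.20 in the bridge and -0.36 in the distal stump. Ly6e, the most abundant of these relatives, stood at 252 CPM in the CTL bridge and 403 CPM in the Nf1 KO bridge (0.67, SE 0.22, edgeR adjusted p = 0.061). Of the 8 tested relatives 3 were called higher and none lower in the Nf1 KO bridge than in the Nf1 KO distal stump. Of all tested genes 7.78% were called higher and 7.41% lower there. Ly6a was among the 3 (0.71, SE 0.20), whereas Lypd2 was lower in that comparison.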
